A study of Danio rerio with 2 samples.

Results

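Vascular endothelial progenitor cells (EPC) are the cells of the early embryo that have entered the vascular lineage and have not yet taken on an arterial or venous identity. The first axial vessels of the zebrafish trunk, an artery and a vein, are built from them. Etv2, an ETS transcription factor, starts this programme, and Tal1, a basic helix-loop-helix factor, acts with its partner Lmo2 in progenitors of both vessels and blood. As endothelial cells mature they switch on junction proteins, receptors for vascular ligands and basement membrane components, while the early progenitor factors decline.

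The cells came from untreated embryos of the line Tg(-2.3 etv2:GFP)zf372, in which GFP is driven by a fragment of etv2 regulatory sequence. The captured cells also included populations that the study named erythrocytes, macrophages, epithelial and tailbud cells. EPC are the 14 cells that carry number 4 in the authors' deposited grouping, out of 96 sorted GFP-positive cells. Of these, 8 were sorted at 15-18 somites and 6 at 20 somites, the earlier and the later stage of the series. They were set against 21 arterial and venous cells, 14 of the earlier and 7 of the later stage. These comprised 8 venous cells (number 5, 4 per stage) and 13 arterial cells (number 6, 10 and 3 cells). The names of the populations are those of the study. All cells of a stage came from pooled embryos, sorted and captured on a Fluidigm C1 chip, which holds cells in separate chambers. Each stage is therefore 1 sample, stage, day and chip cannot be told apart, and cells are not replicates. The mix of arterial and venous cells also differed between the stages, and its part in differences between stages was not tested. The populations were also clustered on the values compared here, so every difference below is a description without a test.

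The label was checked first against the markers etv2, lmo2, tal1 and tmem88a, the last of which encodes a membrane protein that restrains Wnt signalling. Values are transcript shares (TPM, which sum to the same total in each cell). The level of a gene is its average log2(TPM + 1) over the cells of a stage, with both stages given the same weight, and a gene counts as detected in a cell above 1 TPM. Differences are EPC minus arterial and venous cells on this scale, which understates the change of low genes, and read depth cannot be read from TPM, so that 0 TPM is no proof that a transcript was missing. The transcript of lmo2 (ENSDARG00000095019) lay between 815 and 10827 TPM in EPC with a median of 6535 TPM, and between 119 and 4021 TPM with a median of 938 TPM in arterial and venous cells. At 15-18 somites its level was 11.94 in EPC against 9.44 in arterial and venous cells. At 20 somites it was 12.13 in EPC against 9.90 in arterial and venous cells, and the mean difference was 2.36. In 9 of 14 EPC lmo2 was above every arterial and venous cell, although the groups overlapped. The transcript of tal1 (ENSDARG00000019930) ranged over 108 to 5239 TPM in EPC (median 1616) and over 0 to 1609.6 TPM in arterial and venous cells (median 339), with a mean difference of 2.41. Its difference was larger against venous cells (3.37) than against arterial cells (1.68). As log2(TPM + 1), 1 venous cell of the later stage had 0 and 1 of the earlier stage 4.19. The other venous cells had 7.05 to 10.37, so the venous value leans on few cells.

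The other 2 markers separated the populations less. The level of etv2 (ENSDARG00000053868) was 12.98 in EPC and 12.46 in arterial and venous cells, a difference of 0.52, and it was found in all 14 EPC and all 21 arterial and venous cells. Its values spread over 2482 to 14311 TPM in EPC and over 1727 to 9222 TPM in arterial and venous cells, so that the ranges overlapped widely. The reporter itself selects for etv2 activity. The marker tmem88a (ENSDARG00000056920) had a mean difference of 0.03, which was 1.05 at the earlier and -0.98 at the later stage. It was 1.61 lower in EPC than in venous cells and 1.45 higher than in arterial cells. It was not detected in 2 EPC, both of the later stage, nor in 2 arterial cells. Of the 4 markers, lmo2 and tal1 were thus the ones that set EPC apart. Of these markers 3 (etv2, lmo2 and tal1) stand in the authors' deposited marker table for population 4, so their levels describe how the population was defined and do not test it.

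**Figure D1:**
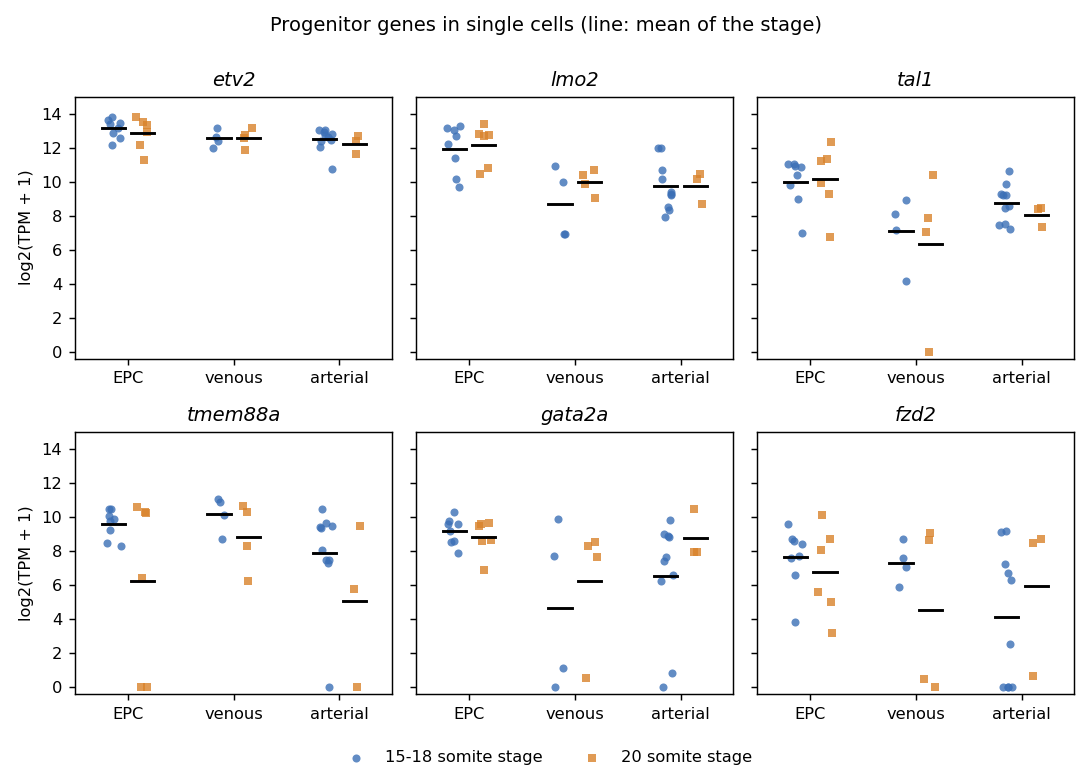
Levels of etv2, lmo2, tal1, tmem88a, gata2a and fzd2 in single cells, as log2(TPM + 1) on the vertical axis, for EPC (14 cells), venous (8) and arterial cells (13). Points are cells, coloured by stage, and black lines are stage means. No EPC lacked tal1, gata2a or fzd2, the ranges of etv2 overlapped widely, and tmem88a was not detected in 2 EPC of the later stage.

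Gata2, a GATA factor of blood and endothelial progenitors, and Fzd2, a Wnt receptor, were also counted among the genes higher in EPC. The transcript of gata2a (ENSDARG00000059327) lay between 119 and 1269.5 TPM in EPC and between 0 and 1425 TPM in arterial and venous cells, with medians of 642 TPM in EPC and 207 TPM in arterial and venous cells. Its difference was 3.19 at the earlier and 1.47 at the later stage. At the later stage, as log2(TPM + 1), EPC were at 6.90 to 9.68, the arterial cells at 7.93, 7.95 and 10.48, and the venous cells at 0.54 to 8.52. The gata2a transcript was detected in all 14 EPC and in 17 of 21 arterial and venous cells. Its SD over cells was 0.89 in EPC and 3.56 in arterial and venous cells. The transcript of fzd2 (ENSDARG00000054438) was detected in all 14 EPC, at 8.08 to 1094 TPM, and in 14 of 21 arterial and venous cells, at 0 to 579 TPM. Its mean difference was 2.12, and the groups overlapped for both genes.

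Over the whole table, 5390 of 27931 genes were above 1 TPM in at least 50% of the cells of either side and were compared. The median difference of all these genes was 0.18, with 5% of genes below -1.84 and 5% above 2.10. Of the 5390 genes 3116 were above 0 and 2274 below, and counts of list members above or below 0 are to be read beside these. A gene was counted as higher or lower in EPC when its mean difference reached 2 in size and its difference at each stage reached 1 in the same direction. By this rule 255 genes (4.73%) were counted as higher in EPC and 189 (3.51%) as lower. Among the 4 progenitor markers, 2 were counted as higher against this background of 4.73%. Of the 255 higher genes, 17 stand in the authors' deposited marker table, all for population 4, and 238 do not. Of the 189 lower genes, 40 stand in that table and 149 do not. Genes at the edge of the rule included the spliceosome gene SNRPE, counted at 2.02, and the cyclin gene ccng1, not counted at 1.89.

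The split between higher and lower genes depended on how cells were averaged. With the log2 of the mean TPM at each stage, a measure that cells with high values dominate, 180 genes were counted as higher and 239 as lower, and the median of all genes was -0.01. With a pseudocount of 10 the counts were 30 and 51. When, as a choice made after the data had been seen, only cells with 4500 to 6500 detected genes were kept (12 EPC and 17 arterial and venous cells), the counts were 221 and 287 and the median was 0.01. EPC had slightly more genes detected per cell, with 4608 to 7337 (median 5390.5) in EPC against 4329 to 6643 (median 5142) in arterial and venous cells. The part of this in the counts was not tested beyond that selection. A chamber can hold more than 1 cell, and doublets were not called.

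**Figure D2:**
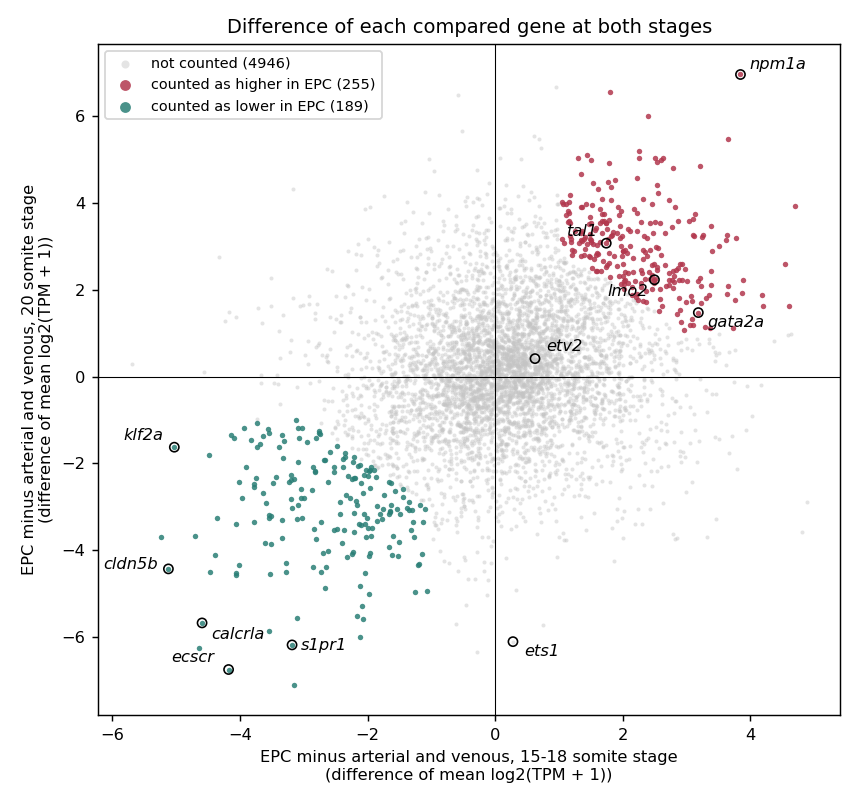
Difference of each of the 5390 compared genes, EPC minus arterial and venous cells on the log2(TPM + 1) scale, at 15-18 somites (horizontal axis) and 20 somites (vertical axis). Red points are the 255 genes counted as higher in EPC, green points the 189 counted as lower, grey points all others. Among circled genes npm1a lies farthest in the upper right, ecscr, calcrla and cldn5b in the lower left, and ets1 lies near 0 at the earlier stage (0.28) and at -6.11 at the later stage.

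The genes that defined EPC in the authors' deposited table were described next. Robo3 is a receptor of axon guidance, and robo3 (ENSDARG00000005645) was detected in 13 of 14 EPC and 12 of 21 arterial and venous cells, with a mean difference of 3.43. Jam2b is a junctional adhesion molecule. The transcript of jam2b (ENSDARG00000079071) was found in 7 of 14 EPC (50.0%, exact 95% interval 23.0 to 77.0, which covers the counting of cells only), at up to 489.5 TPM, and in 1 of 21 arterial and venous cells (4.76%, interval 0.12 to 23.8), at 1.99 TPM. It was found in 0 of 8 venous cells, which allows a share of up to 37.5%. The gene passed the filter through EPC alone, at the 50% needed. With each of 35 cells left out in turn, it was counted 28 times. Its level was 3.48 in EPC and 0.00 in EC2 cells, a further endothelial population of 7 cells that bears number 7. The homeobox gene meox1, known from somites, was detected in 9 of 14 EPC and 9 of 21 arterial and venous cells (difference 2.61), of which 7 were arterial and 2 venous. The septin gene sept9a was detected in all 14 EPC and in 11 of 21 arterial and venous cells (difference 2.88). The other named genes of the table were lmo2, zgc:66472 (3.27), the kinase gene mast4 (2.75), the vesicle trafficking gene tom1l2 (2.75), fbxo18, which encodes a DNA helicase (3.77), and si:ch211-238n5.4, detected in 8 of 14 EPC and 3 of 21 arterial and venous cells. Against EC2 cells, in a comparison that shares the EPC, the values were 5.34 for robo3, 4.95 for sept9a, 3.51 for meox1, 3.35 for lmo2 and -0.26 for mast4.

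Outside that table, the 15 higher genes with the largest difference at the stage where it was smaller were named, 13 of them with a symbol. The first of them, SRSF6 (ENSDARG00000013729), encodes a splicing factor and was detected in 13 of 14 EPC, at 0.62 to 777 TPM with a median of 209 TPM, and in 7 of 21 arterial and venous cells, at 0 to 450.4 TPM with a median of 0 TPM. Its difference was 4.69 at the earlier and 3.92 at the later stage. A second identifier with the same symbol, ENSDARG00000016783, was at 5.39 in EPC and 4.18 in arterial and venous cells, so reads of close copies may be split between them. LSM7, a component of the spliceosome, was detected in all 14 EPC and in 16 of 21 arterial and venous cells, and its difference was 3.23. Also named were HNRNPD, an RNA-binding protein of mRNA decay (3.48), EIF6, which acts in the maturation of the large ribosomal subunit (3.44), PSMA2, a proteasome subunit (3.18), MRPL13, a mitochondrial ribosomal protein (3.18), PHB1, a mitochondrial prohibitin (3.26), INO80, a chromatin remodeller (3.32), and COPS7A, a subunit of the COP9 signalosome (3.15). CDKN2AIPNL (4.56) was detected in 12 of 14 EPC, 0 of 8 venous and 4 of 13 arterial cells. The magnesium transporter gene NIPA2 was at 4.04 and the adhesion molecule gene ALCAM at 3.23. ALCAM was found in 8 of 14 EPC, 0 of 8 venous and 8 of 13 arterial cells. For CDKN2AIPNL and ALCAM, 0 of 8 venous cells allows a share of up to 37.5%. The unnamed genes ENSDARG00000090191 and ENSDARG00000045348 were at 3.38 and 3.44.

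The comparison with EC2 cells shares the EPC, and there the values were 1.56 for SRSF6, 0.95 for LSM7, 0.65 for PSMA2, 0.33 for HNRNPD and 0.18 for MRPL13. They were 4.48 for npm1a, 3.89 for CDKN2AIPNL, 3.39 for NIPA2, 3.12 for EIF6 and 3.05 for INO80. The other 5 named genes were at 2.88 (PHB1), 0.91 (COPS7A), 0.67 (ALCAM), 0.71 (ENSDARG00000090191) and -0.62 (ENSDARG00000045348), the last of them lower in EPC than in EC2 cells. The EC2 cells had 5319 to 6672 genes detected, with a median of 5556.

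The gene npm1a (ENSDARG00000014329), which encodes the nucleolar chaperone nucleophosmin, had the largest mean difference of the 255 higher genes (5.40). It was found in all 14 EPC, at 1.91 to 2408 TPM with a median of 688 TPM, and in 16 of 21 arterial and venous cells, at 0 to 995 TPM with a median of 9.29 TPM. At 15-18 somites its level was 9.58 in EPC and 5.73 in arterial and venous cells. At 20 somites it was 8.55 in EPC and 1.59 in arterial and venous cells. In 13 of 14 EPC it was above the median of arterial and venous cells. The remaining EPC, of the later stage, had 1.91 TPM. Outside the endothelium the level was 11.20 in erythrocytes, 10.06 in macrophages and 8.34 in epithelial cells, and it was 4.58 in EC2 cells.

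Of a list of 33 genes of the nucleolus and of ribosome assembly, 27 were matched and 18 passed the filter. Their median difference was 1.50, beside 0.18 for all genes compared, and 6 were counted as higher (background 4.73%) and 0 as lower. The 6 were npm1a (5.40), wdr43, a factor of small subunit processing (3.64), gnl3, which encodes nucleostemin (2.90), nop2, an rRNA methyltransferase gene (2.49), nhp2 of the H/ACA particles (2.25) and the helicase gene ddx21 (2.25). The transcript of gnl3 ranged over 0 to 329 TPM in EPC (median 14.5) and over 0 to 15.8 TPM in arterial and venous cells (median 0.513). That of wdr43 was found in 11 of 14 EPC and 7 of 21 arterial and venous cells. Of the 6 genes, wdr43, gnl3 and nop2 passed the filter through EPC alone, which favours genes higher in EPC. Not counted but also above 0 were ncl, which encodes nucleolin (1.43), and fbl, which encodes fibrillarin (1.55). The exception among the 18 was mych, a Myc family gene, at -0.71, with -3.06 at the earlier and 1.63 at the later stage.

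The mean level over the matched members of this list was 2.74 to 6.11 in single EPC (median 4.44) and 2.03 to 4.55 in arterial and venous cells (median 3.23). It exceeded every arterial and venous cell in 7 of 14 EPC and their median in 13. The median difference was 1.45 with cells of 4500 to 6500 detected genes and 0.84 with the log2 of the mean TPM. Among the captured cells the median member had its highest level in erythrocytes (8.56) and macrophages (6.35). It stood at 5.29 in EPC, against 3.99 in EC2, 3.71 in venous and 3.61 in arterial cells.

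**Figure D3:**
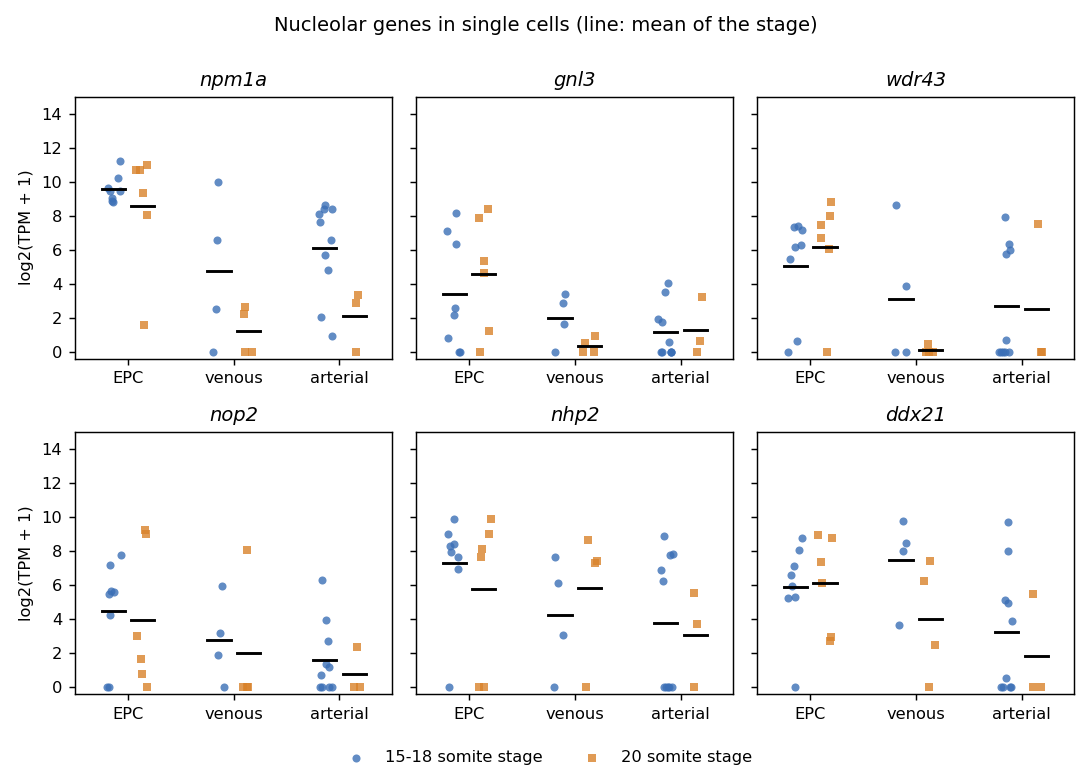
Levels of the 6 counted nucleolar genes npm1a, gnl3, wdr43, nop2, nhp2 and ddx21 in single cells, as log2(TPM + 1) on the vertical axis, in EPC, venous and arterial cells. Points are cells, coloured by stage, and black lines are stage means. All 14 EPC had npm1a above 1 TPM, each of the other genes was at 0 in at least 1 EPC, and ddx21 differed little between EPC and venous cells (0.26).

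Cytosolic ribosomal protein genes differed less. Of 65 matched cytosolic ribosomal protein genes, 64 passed the filter, 62 of them were above 0, and 0 were counted in either direction. Their median difference was 0.37. Their mean level per cell lay between 10.67 and 11.50 in EPC and between 10.11 and 11.10 in arterial and venous cells, and 8 of 14 EPC were above every arterial and venous cell. Reads of the many copies of these genes cannot be told apart with certainty. All 13 protein genes of the mitochondrial genome were above 0, with a median of 0.87, and their mean level per cell exceeded every arterial and venous cell in 7 of 14 EPC. Of the 13, 3 stand in the authors' table. The subunit gene MT-ND6 was counted as higher (2.60, background 4.73%), at 45.7 to 2032 TPM in EPC and 0 to 769 TPM in arterial and venous cells. MT-ND6 is encoded on the opposite strand to its neighbours, and the sources used here do not state that strand was kept. Since TPM are shares, a larger part for abundant transcripts leaves less for all others.

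Families of housekeeping complexes were added after the values had been seen, and are given as values only. Among 23 spliceosome genes of the snrp, lsm and sf3 groups that passed the filter, 22 were above 0, 4 were counted as higher (background 4.73% in this and the following families) and 0 as lower, and the median was 1.02. The 4 were LSM7 (3.23), LSM5 (2.93), SNRPA1 (2.89) and SNRPE (2.02). Among 24 srsf and hnrnp genes, 3 were counted as higher and the median was 0.71. Among 27 mitochondrial ribosomal protein genes 4 were counted as higher, with a median of 0.93. Among 38 translation factor genes 6 were counted as higher (background 4.73%), with a median of 0.38. The 8 chaperonin subunits had a median of 0.66, and CCT6B (2.76) and CCT8 (2.47) were counted. The 32 proteasome subunits had a median of 0.25 with 4 counted as higher (background 4.73%), namely PSMA2 (3.18), PSMC5 (2.73), PSMA4 (2.69) and PSMC3 (2.21). With cells of 4500 to 6500 detected genes the proteasome median turned to -0.09, while that of the spliceosome genes was 1.12. With the log2 of the mean TPM the spliceosome median was 0.53. Against EC2 cells the medians were 0.21 for spliceosome, 0.55 for srsf and hnrnp and 0.74 for mitochondrial ribosomal protein genes. They were 0.34 for translation factors, 0.49 for chaperonin and 0.19 for proteasome subunits, beside -0.05 for all genes compared.

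**Figure D4:**
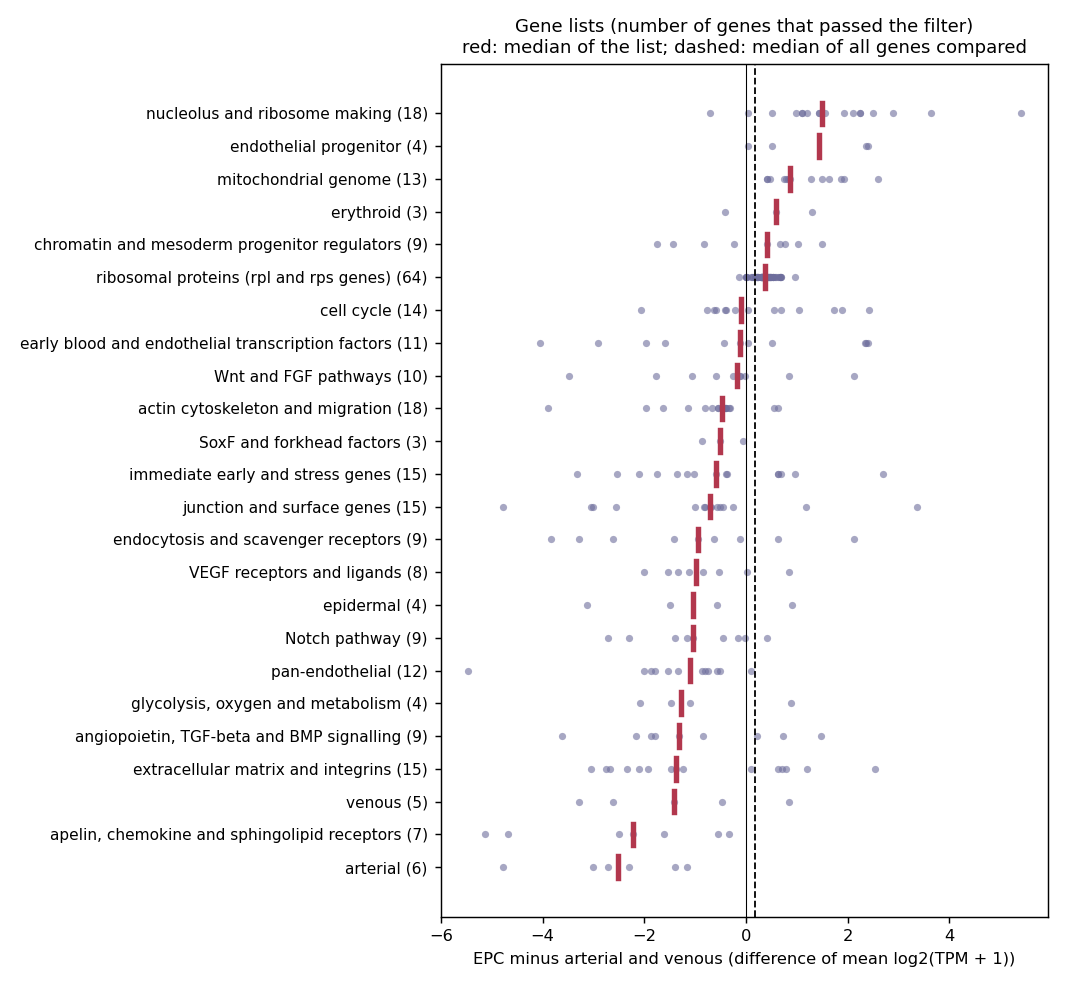
Differences, EPC minus arterial and venous cells on the log2(TPM + 1) scale, of the genes of each list that passed the filter (points, number in brackets), with the median of the list (red bar) and the median of all 5390 compared genes (dashed line, 0.18). Lists with fewer than 3 such genes and the added families are left out. Nucleolar genes have the highest median (1.50) and arterial markers the lowest (-2.51).

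Genes of differentiated endothelium were mostly lower in EPC. Of 15 pan-endothelial genes 12 were matched, and all 12 passed the filter. Their median difference was -1.11, with 11 of 12 below 0, 1 counted as lower (background 3.51%) and 0 as higher. The exception was egfl7, which encodes a secreted factor of endothelial cells and stands in the authors' table for EPC. It was at 911 to 4519.9 TPM in EPC and 432 to 7282 TPM in arterial and venous cells, a difference of 0.10. The cadherin gene cdh5 was detected in all 14 EPC, at 27.6 to 1013 TPM, and in all 21 arterial and venous cells, at 103 to 1395 TPM, and differed by -0.81. The VEGF receptor genes kdrl (-1.34), kdr (-1.54) and flt1 (detected in 10 of 14 EPC and 19 of 21 arterial and venous cells) and the angiopoietin receptor genes tie1 (-1.87) and tek (-1.79) were below 0 as well, and none of them was counted. The mean level of the list was 2.97 to 7.40 in EPC and 5.93 to 8.43 in arterial and venous cells. All 14 EPC were below the median of the arterial and venous cells. The lowest EPC, at 2.97, was of the later stage and had no tmem88a. It was the EPC with 1.91 TPM of npm1a and also had the lowest level of the progenitor markers (7.12). Without this cell 271 genes were counted as higher and 194 as lower.

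The counted gene of this list was ecscr (ENSDARG00000087457), which encodes a surface protein of endothelial cells. It stands in the authors' table for the arterial population, so its count is not independent of the grouping. It was detected in 2 of 14 EPC (14.3%, interval 1.78 to 42.8) and in 18 of 21 arterial and venous cells (85.7%, interval 63.7 to 97.0). Its median was 0 TPM in EPC and 122 TPM in arterial and venous cells, and its maximum was 406 TPM in EPC and 656 TPM in arterial and venous cells. The difference was -4.18 at the earlier and -6.75 at the later stage. It was lower in EPC than in venous cells (-3.96), arterial cells (-6.35) and EC2 cells (-4.32).

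The receptor genes calcrla and s1pr1 were counted as lower. Both stand in the authors' table, calcrla for the arterial population and s1pr1 for EC2 cells, so their counts are not independent of the grouping. Calcrla is a receptor of the calcitonin family, and calcrla (ENSDARG00000011473) had 0 to 499 TPM with a median of 0.817 TPM in EPC, and 0.727 to 2230.1 TPM with a median of 401 TPM in arterial and venous cells. In 6 of 14 EPC it was below every arterial and venous cell, and the mean difference was -5.13. The sphingosine-1-phosphate receptor gene s1pr1 (ENSDARG00000042690) was found in 3 of 14 EPC and 16 of 21 arterial and venous cells, with a difference of -3.18 at the earlier and -6.18 at the later stage. Another member of that receptor family, s1pr5a, was found in 4 of 14 EPC and 18 of 21 arterial and venous cells (-3.72). Of the 7 genes in the list of apelin, chemokine and sphingolipid receptors that passed the filter, 3 stand in the authors' table. Of the 7, 2 were counted as lower (background 3.51%), and the median was -2.22. The median was -0.31 at the earlier and -4.26 at the later stage, which holds only 6 EPC and 7 arterial and venous cells. For the apelin receptor gene aplnra the difference was -0.17 at the earlier and -4.26 at the later stage. For aplnrb it was 0.01 and then -3.23, and for the co-receptor gene ramp2 -0.31 and then -4.67.

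**Figure D5:**
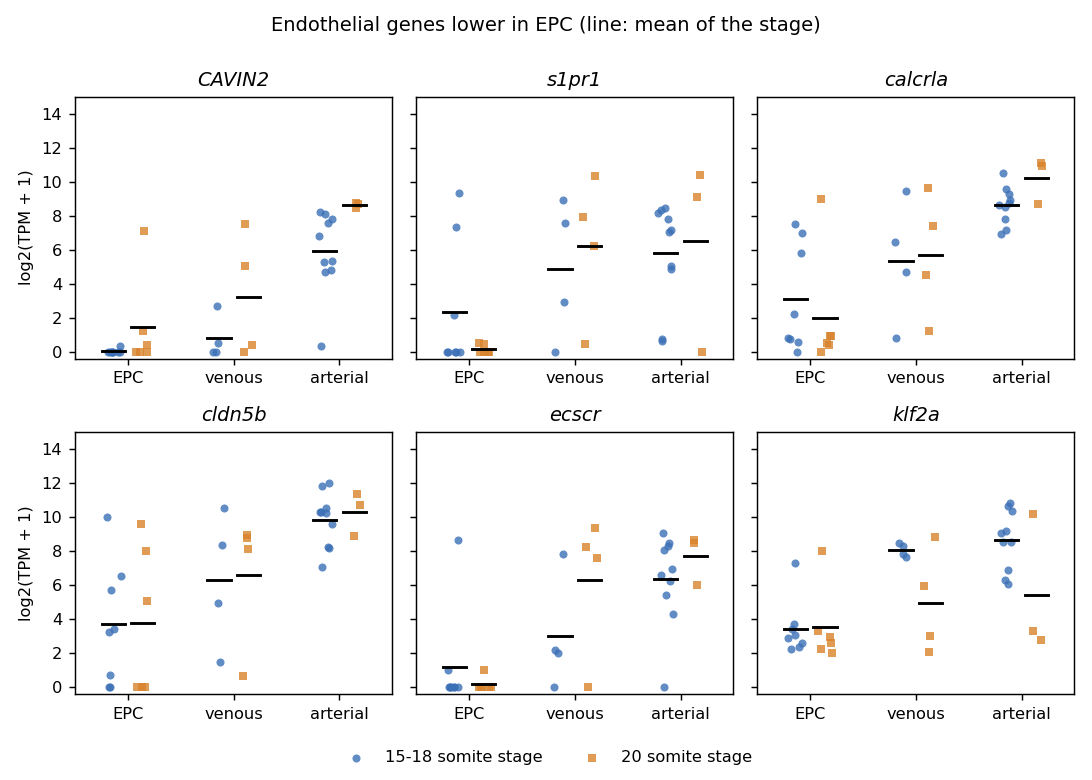
Levels of CAVIN2, s1pr1, calcrla, cldn5b, ecscr and klf2a in single cells, as log2(TPM + 1) on the vertical axis, in EPC, venous and arterial cells. Points are cells, coloured by stage, and black lines are stage means. Most EPC had ecscr and CAVIN2 at or near 0 (above 1 TPM in 2 of 14 each), and arterial cells were the highest for CAVIN2, calcrla and cldn5b.

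Among arterial markers all 6 passed the filter, 4 were counted as lower (background 3.51%) and 0 as higher, and the median was -2.51. Of them 3 (cldn5b, efnb2a and dll4) stand in the authors' table for the arterial population, so that the count is not independent of the grouping. Cldn5b is a claudin of endothelial tight junctions. The transcript of cldn5b (ENSDARG00000014059) was detected in 8 of 14 EPC and 20 of 21 arterial and venous cells, with medians of 9.11 TPM in EPC and 496 TPM in arterial and venous cells. Its difference was -6.33 against arterial cells and -2.73 against venous cells. The ephrin ligand gene efnb2a (-5.01 against arterial, -0.47 against venous cells) and the Notch ligand genes dll4 (-4.26 and -0.92) and dlc (-4.44 and -1.26) differed more against arterial than against venous cells. The Notch target gene hey2 was at -1.35 against arterial and -1.22 against venous cells and was not counted. It was found in 11 of 14 EPC, and dll4 in 9.

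Of 7 venous markers 5 were matched and passed the filter, and 2 were counted as lower (background 3.51%). Of these 5 markers, 2 stand in the authors' table, so the count is not independent of the grouping. The scavenger receptor genes stab2 (-4.24 against venous, -2.76 against arterial cells) and stab1l (-3.19 and -2.47) were lower in EPC than in both populations. The receptor gene flt4, which binds Vegfc, was 1.92 lower in EPC than in venous cells and 2.89 higher than in arterial cells, and it was detected in all 14 EPC, at 2.20 to 236 TPM. The transcription factor gene nr2f2 had a difference of 2.82 at the earlier and of -3.75 at the later stage. The caveolar diaphragm gene plvapb was detected in 3 of 14 EPC, 6 of 8 venous and 5 of 13 arterial cells, and was lower in EPC by 5.69 than in venous cells.

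Outside the authors' table, 15 lower genes were named by the same rule, 11 of them with a symbol. CAVIN2 encodes a coat protein of caveolae, and it was found in 2 of 14 EPC, 3 of 8 venous and 12 of 13 arterial cells, with a difference of -4.25. Rasip1, a Ras-interacting protein needed for the vessel lumen, was detected in 9 of 14 EPC, at 0 to 350.1 TPM, and in all 21 arterial and venous cells, at 22.3 to 538 TPM. In 8 EPC rasip1 lay below every arterial and venous cell (difference -3.88). The kinase gene snrkb was at 0 to 74.3 TPM in EPC (median 3.8) and 0 to 627 TPM in arterial and venous cells (median 114), and every EPC was below that median. The LIM domain gene CRIP2 (ENSDARG00000070670) was at 0 to 911 TPM in EPC (median 88.3) and 0.81 to 4099 TPM in arterial and venous cells (median 1357), a difference of -4.70, again with every EPC below the median. Its symbol is also borne by another identifier, whose value is not given here. The microtubule gene CAMSAP2 (-4.19), PPP1R13B, which encodes a p53-binding protein (-4.29), the inositol phosphate kinase gene IP6K2 (ENSDARG00000019613, -4.31), the G protein subunit gene GNG2 (-3.73), ubtfl (-4.49) and ssuh2rs1 (-4.18) were also among them, as was s1pr5a. Of the unnamed genes, ENSDARG00000052004 was at -3.57 and ENSDARG00000090651 at -3.53. A second identifier of IP6K2, ENSDARG00000008310, was at 0.46. PPP1R13B was detected in 3 of 14 EPC, 8 of 8 venous and 10 of 13 arterial cells. A second G protein subunit gene, gnb1a, was also counted as lower (-3.61). It was detected in 9 of 14 EPC and all 21 arterial and venous cells. The G protein subunits are a family added after the values were seen. Of its 12 genes that passed the filter, 2 were counted as lower (background 3.51%), while 8 were below 0 and 4 above. The median of the family was -0.28, and against arterial cells alone it was 0.21.

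Lower genes that defined other populations included cldn5b, ecscr, calcrla and s1pr1, given above. Also among them were spock3, a proteoglycan gene (-5.45), ldb2a, a LIM domain binding gene (-4.04), and lnx2b, a ubiquitin ligase gene (-3.68). The others named were PKP3 (2 of 2), a plakophilin gene (-3.79), clul1 (-3.36) and si:ch211-156j16.1 (-5.13). The level of spock3 was 0.42 in EPC, against 2.90 in venous cells, 7.69 in arterial cells and 7.84 in EC2 cells. The lower genes were chosen for their difference, and how far single cells shared it is a description. In single EPC 57 to 123 of the 189 lower genes were detected (median 84.5). In arterial cells 128 to 174 were detected (median 154), and in venous cells 126 to 154 (median 137).

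Extracellular matrix genes were mixed. Of 15 that passed the filter, 4 were counted as lower (background 3.51%) and 1 as higher (background 4.73%), with a median of -1.38. Of the 15, 7 stand in the authors' table, so the counts are not independent of the grouping. The type IV collagen genes col4a1 (-2.68) and col4a2 (-2.10), the laminin receptor gene itga6a (-2.75) and emilin2a (-3.04) were lower, and col18a1a, the source of endostatin, was higher (2.53). Against venous cells alone emilin2a was 1.02 higher in EPC and the median of the list was -0.13, beside -1.86 against arterial cells alone. The gene itga6a was found in 1 of 14 EPC and 15 of 21 arterial and venous cells. Among junction and surface genes 3 of 15 were counted as lower (background 3.51%), namely cldn5b, efnb2a and podxl, a sialomucin gene (-3.05), and jam2b as higher (background 4.73%). Of these 15 genes, 3 stand in the authors' table, so these counts are not independent of the grouping either.

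Transcription factors of early blood and endothelium, a list of 30 genes with 18 matched and 11 passing the filter, did not move together. Against a median of -0.13, lmo2, tal1 and gata2a were counted as higher (background 4.73%) and ldb2a as lower (background 3.51%). Of the 11 genes, 5 stand in the authors' table, so these counts are not independent of the grouping. The difference of the ETS gene ets1 was 0.28 at the earlier stage and -6.11 at the later stage, where its level was 1.97 in EPC and 8.07 in arterial and venous cells. The ETS gene erg was at -0.51 and then at -2.70, and tmem88b, a close relative of tmem88a, at 2.85 and then at -3.73. Notch pathway genes had a median of -1.05 (2 of 9 counted as lower, both ligands, background 3.51%) and VEGF receptors and ligands of -0.98 (0 of 8 counted). The Notch ligand gene dll4 stands in the authors' table, so the Notch count is not independent of the grouping. Of 9 genes of angiopoietin, TGF-beta and BMP signalling that passed the filter, 3 were above 0, and the median was -1.33. In the BMP pathway, smad5 (-2.17) and its target gene id3 (-3.61) were the 2 of these counted as lower (background 3.51%). The transcript of id3 was detected in 8 of 14 EPC and 19 of 21 arterial and venous cells, with medians of 1.61 TPM in EPC and 326 TPM in arterial and venous cells. The Wnt effector gene tcf7l1b was lower (-3.49) and the receptor gene fzd2 was higher. Of the 10 Wnt and FGF pathway genes that passed the filter, 8 were below 0 and 2 above, with a median of -0.18.

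The flow-responsive factor gene klf2a (ENSDARG00000042667) was above 1 TPM in every EPC and every arterial and venous cell but at different levels, with 3.01 to 258 TPM in EPC (median 6.58) and 3.13 to 1833 TPM in arterial and venous cells (median 317). The difference was -5.03 at the earlier and -1.63 at the later stage. With it fosl2 (-2.11) and jund (-2.53) were counted as lower among 15 immediate early and stress genes (background 3.51%), and egr2a as higher (2.70, background 4.73%). Of 14 cell cycle genes 7 were above 0, beside 3116 of all 5390 genes compared. Their median was -0.09, beside 0.18 for all genes, and only mcm5 was counted, as lower (-2.06, background 3.51%).

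Markers of other cell types were set beside these results. None of the matched tailbud (5), cardiac (5) or neural (5) markers passed the filter, and of the erythroid markers 3 of 12 did, of the macrophage markers 1 of 9. The mean level per cell of the erythroid list was 0.07 to 1.56 in EPC and 0.09 to 1.41 in arterial and venous cells, and that of the macrophage list 0.00 to 1.29 in EPC and 0.00 to 2.04 in arterial and venous cells. The tailbud list reached 2.34 in EPC and 1.58 in arterial and venous cells, and 4 of 14 EPC were above every arterial and venous cell. Its gene cdx4, named after its values were seen, was detected in 6 of 14 EPC and 2 of 21 arterial and venous cells. The skeletal muscle list was at 0.00 to 2.01 in EPC (median 0.27) and 0.00 to 0.97 in arterial and venous cells (median 0.68). For this list 2 of 14 EPC were above every arterial and venous cell. These 2 EPC and the 4 of the tailbud list were all among the 5 EPC with the highest mean level of Hox and Cdx genes. The gene cdx4 belongs to both the tailbud list and the Hox and Cdx list, so the agreement of these lists is partly built in. The part of these EPC in the comparison was not tested. The cardiac and endocardial list lay between 0.00 and 1.44 in EPC (median 0.31) and between 0.00 and 5.31 in arterial and venous cells (median 0.42), and 2 arterial cells of the earlier stage, at 5.31 and 3.85, stood above the other arterial, venous and EPC cells. Without these 2 cells, a choice made after the data had been seen, 239 genes were counted as higher and 222 as lower. The lateral plate list was at 0.83 to 4.93 in EPC (median 1.79) and 1.41 to 4.02 in arterial and venous cells (median 2.89). Of its 7 matched genes 2 passed the filter, with a median of -2.47, and 1 of these (id3) was counted as lower (background 3.51%). Of the epidermal markers 4 of 8 passed the filter, and the keratin gene krt8, which endothelial cells also contained, was lower in EPC (-3.13), at 1.08 to 3764 TPM in EPC and 302 to 7712 TPM in arterial and venous cells. The part of these markers in the differences was not tested.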

How the data were processed

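The authors deposited 1 TPM value per gene and cell, made with Kallisto within AltAnalyze against Ensembl release 72 of the Zv9 assembly. Which version of Kallisto was used is not given in the sources used here. Populations are the authors' deposited clusters. Of their marker table (479 genes, 60 of them for population 4) only the membership was used, and its comparison values were not. Symbols were available for 20017 of 27931 identifiers (71.7%), upper-case ones as the name table gives them.

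Genes above 1 TPM in at least 50% of EPC or of arterial and venous cells were compared as log2(TPM + 1), the stages weighted equally. Named were the 15 higher and 15 lower genes outside the marker table, ranked by the smaller of both stage differences, 10 and 10 within it, and list members where described. The 31 lists hold 688 genes, of which 479 matched, and members and lists were chosen with earlier results of these data known. A further 10 families were added after the values were seen. Exact Clopper-Pearson 95% intervals were computed for shares of cells, with a limit of 3 cells where none was found. No test was run, because each stage is 1 sample, and the planned search of promoter motifs was not carried out. No pair of cells held identical values (0 pairs). However, 2 arterial cells of the earlier stage were close for many of the genes shown. As log2(TPM + 1) they had 12.93 and 12.82 for etv2, 10.30 and 10.31 for cldn5b, and 8.38 and 8.41 for npm1a. Whether they are separate cells was not tested, and the intervals count both. Without the first of them the counts were 254 higher and 194 lower genes, and without the second 251 and 194. TPM gives no depth per cell. Copies such as keratin and ribosomal protein genes, and overlapping mitochondrial genes, may share reads. The alternatives were other pseudocounts, filters, weights, reference cells, scalings and stages, and leaving out each cell. List medians never included members that failed the main filter, so no alternative shows the lists without it. The code was run on shuffled values with some genes raised by a set amount, which checks its arithmetic and not the numbers of genes counted here. Python 3.11.15, numpy 2.4.6, pandas 2.3.3, scipy 1.17.1 and matplotlib 3.10.9 were used.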

Additional observations from a re-analysis of the deposited data

Results flagged for a closer look

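For 6 groups of genes the median difference between EPC and arterial and venous cells had opposite signs at the earlier and the later stage. With 1 sample per stage this change between stages was not tested. The reference also changed, from 10 arterial and 4 venous cells at the earlier stage to 3 and 4 at the later. The part of this mix was not tested either. For early blood and endothelial transcription factors, the median over both stages was 0.63 against arterial cells and -1.44 against venous cells. Transcription factors of early blood and endothelium were at 0.86 at 15-18 somites and at -1.12 at 20 somites, a change of -1.98. Cell cycle genes were at -0.43 and then at 0.35 (change 0.78), and Wnt and FGF pathway genes at -0.95 and then at 0.06 (change 1.01). Immediate early and stress genes were at -1.29 and then at 0.10 (change 1.39). Glycolysis and metabolism genes, of which 4 passed the filter, were at -1.76 and then at 0.30 (change 2.06). The subunits of the COP9 signalosome, 4 genes of a family added after the values were seen, were at -0.94 and then at 2.86 (change 3.80).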

How the results depend on the processing

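The 105 counted genes of the text had to keep their sign at each stage to be counted, so their signs say little on stability, and among them emilin2a turned to 1.02 against venous cells alone. Named genes that were not counted, such as nr2f2, tmem88a, tmem88b, ets1, mych and flt4, had opposite signs between stages or between venous and arterial cells. The number of genes past the thresholds moved. Of 255 genes counted as higher and 189 as lower, a pseudocount of 0.1 gave 600 and 336, and a pseudocount of 10 gave 30 and 51, since the pseudocount sets how far low values can move. The earlier stage alone gave 461 and 333 and the later stage alone 852 and 576, where the rule had to be met at a single stage. Venous cells alone as the reference gave 340 and 325, arterial cells alone 372 and 301, and both with EC2 cells 206 and 206. Cells of 4500 to 6500 detected genes gave 221 and 287, and the log2 of the mean TPM 180 and 239, with 91 and 103 genes shared with the main counts. The cause of these shifts was not tested. A mean difference of 1 with the same sign at each stage gave 1006 and 655 genes. Leaving out each cell in turn gave 227 to 296 higher and 179 to 215 lower genes. Without the 2 arterial cells of high cardiac marker level the counts were 239 and 222. Of the 105 genes, 79 were counted with each of the 35 cells left out, and gapdhs (17 of 35), col18a1a (18), mcm5 (18), SNRPE (21), clta (22), fzd2 (24) and fosl2 (26) were counted least often. The median of all genes was 0.18 in the main comparison, 0.30 with a pseudocount of 0.1, 0.06 with a pseudocount of 10, 0.05 against venous cells, -0.01 with the log2 of the mean TPM and 0.01 in cells of 4500 to 6500 genes, and differences of lists are to be read against it. List medians changed sign under at least 1 alternative for the cell cycle, the Wnt and FGF pathways, early transcription factors, immediate early genes (0.10 at the later stage), glycolysis (0.30 at the later stage), COP9 subunits (-0.94 at the earlier stage), tubulins (0.44 against venous cells), G protein subunits (0.21 against arterial cells) and proteasome subunits (-0.09 in cells of 4500 to 6500 genes). Both sides of a stage came from the same sample, and differences were taken within each stage. With 1 sample per stage these pairs are too few for a test. Single cells could not be paired, because they carry no number shared between populations. The depth of single cells cannot be read from TPM, and with 14 EPC a share of cells is known only within wide limits.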

Other observations

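Hox and Cdx genes, taken from all positions along the body axis, were rare in these cells. Of 37 matched Hox and Cdx genes 1 passed the filter, HOXB3, with a difference of 1.27. The mean level of the matched Hox and Cdx genes was 0.02 to 3.52 in single EPC (median 0.19) and 0.00 to 1.76 in arterial and venous cells (median 0.05), and 5 of 14 EPC were above every arterial and venous cell. Among these 5 were all EPC that stood above every arterial and venous cell for the tailbud or the skeletal muscle list. For the tailbud list this is partly built in, because cdx4 belongs to both lists. Genes of the actin cytoskeleton and migration had 16 of 18 members below 0 and a median of -0.46, and rasip1 was the member counted as lower (background 3.51%). The crip2 of this list was not matched to the CRIP2 identifier named above. Among 9 scavenger and endocytosis genes that passed the filter, 2 of which stand in the authors' table, stab1l, stab2 and plvapb were counted as lower (background 3.51%). The gene clta, which encodes a clathrin light chain, was counted as higher (2.11, background 4.73%). Of the nuclear genes for respiratory complex I, a family added after the values were seen, 32 passed the filter, 3 were counted as higher (background 4.73%) and 1 as lower (background 3.51%). Their median was 0.58 with all cells and 0.03 with cells of 4500 to 6500 detected genes.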
